A study of Mus musculus with 12 samples.

Results

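Rpl3 and Rpl3l encode alternative forms of a single protein of the large ribosomal subunit, and both were measured in the left ventricle of mice lacking the RNA helicase gene Ddx5 in cardiomyocytes. The members are the 2 genes whose symbols are Rpl3 and Rpl3l in the deposited count tables, of 16673 genes present in both tables. They were selected on their levels and fold changes in these libraries, so their levels, fold changes and ratio are given as a description, without a test. The 12 libraries came from male mice in 4 groups of 3. The constitutive knockout (mCKO) was DDX5fl/fl MYH6Cre+, untreated and 8 weeks old, and its control (CTR1) was Ddx5flox/flox of the same age without Cre. The inducible knockout (iCKO) was Ddx5flox/flox Myh6MerCreMer, and its control (CTR2) was Ddx5flox/flox without Cre. Tamoxifen was given to both of these groups for 5 days in doses of 20 mg/kg/day per the labels. The design text names 7 days after injection, and the age of the iCKO and CTR2 mice is not stated. The floxed Ddx5 alleles were shared by all 4 groups. Both Cre transgenes use the Myh6 promoter, which is active in cardiomyocytes, and since the controls had no Cre, its own effect and that of losing Ddx5 cannot be told apart.

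The protein encoded by Rpl3 is a core component of the large subunit that reaches towards the peptidyl transferase centre, and it is made in nearly all cells. Rpl3l is a paralog expressed in heart and skeletal muscle after birth, and its product takes the place of the Rpl3 product in the ribosomes of those tissues. The levels of the pair are known to move inversely in striated muscle that grows or is injured.

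Rpl3 (Entrez 27367) lies on the minus strand of chromosome 15 at 80077791 to 80091868 in GRCm38, as GENCODE M21 gives it. Its main transcript of 1351 bases has 10 exons and a coding sequence of 403 codons. Rpl3l (Entrez 66211) lies on the plus strand of chromosome 17 at 24727820 to 24736143, with a main transcript of 1375 bases, also in 10 exons, that encodes 407 codons. The coding sequences were identical at 74.4% of 1205 aligned bases. The longest run of identical bases was 22, and no stretch of 25 bases in the Rpl3 transcript occurred in that of Rpl3l. The pair of stretches below is shown because it bears on whether reads of the 2 genes can be told apart. Within the most similar 90 coding bases 82.2% were identical, and the capitals mark the bases that differ between the genes. The Rpl3 stretch spans chr15:80079765-80080369 (minus strand, GRCm38) and the Rpl3l stretch chr17:24733492-24733669 (plus strand), each read 5′ to 3′ and interrupted by an intron that is left out here.
Rpl3: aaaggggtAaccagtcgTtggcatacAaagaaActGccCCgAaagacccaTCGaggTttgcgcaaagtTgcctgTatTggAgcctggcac
Rpl3l: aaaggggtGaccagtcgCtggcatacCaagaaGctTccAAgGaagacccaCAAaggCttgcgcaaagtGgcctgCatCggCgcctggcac
Within the least similar 90 coding bases 62.2% were identical. These lie at chr15:80078713-80078802 for Rpl3 (minus strand) and chr17:24733923-24734012 for Rpl3l (plus strand), each within a single exon.
Rpl3: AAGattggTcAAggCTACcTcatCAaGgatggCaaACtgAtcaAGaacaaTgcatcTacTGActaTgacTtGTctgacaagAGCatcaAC
Rpl3l: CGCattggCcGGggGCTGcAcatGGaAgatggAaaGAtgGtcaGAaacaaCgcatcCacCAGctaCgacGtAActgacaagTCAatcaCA
Even the most similar stretch held 16 differing bases. The pseudogenes Rpl3-ps1 and Rpl3-ps2 are closer to Rpl3, with 81.5% and 52.0% of the stretches of 50 bases in its transcript found in them, and their reads were not analysed here. The level of Rpl3 is uncertain to the extent that its reads were split with them. The 1 overlap with exons of another gene was with the snoRNA gene Gm22077, which shared 93 bases with Rpl3 exons but 0 with its main transcript.

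Each library held between 19682268 and 25871882 counts, and the members were well above the counting limit, with the lowest value being 1395 counts of Rpl3l in an iCKO library. The targeted gene Ddx5 was lower in every knockout library than in every control library of its experiment. It measured 636, 636 and 397 CPM (counts scaled to library size with edgeR's TMM factors) in CTR1 and 233, 232 and 218 CPM in mCKO. In CTR2 it measured 566, 697 and 597 CPM and in iCKO 216, 219 and 192 CPM. Its log2 fold change was -1.57 ± 0.15 in iCKO (standard error), with a Benjamini-Hochberg adjusted p of 1.7e-04 by edgeR's quasi-likelihood test. For mCKO the value was -1.26 ± 0.12 with the replicate number as a block (adjusted p = 0.0019) and -1.29 ± 0.20 without it (adjusted p = 0.17). Replicate 3 of CTR1 and mCKO stood apart from replicates 1 and 2, and with it moved the ribosomal protein genes, whose median was 0.74 higher on the log2 scale in CTR1 replicate 3 and 0.97 higher in mCKO replicate 3. The same median was 0.97 higher in iCKO replicate 3 and 0.08 lower in CTR2 replicate 3. Other gene lists shifted too in replicate 3 of CTR1 and mCKO. Endothelial marker medians were 0.88 and 0.765 higher and fibroblast marker medians 0.73 and 0.80 higher. The cardiomyocyte marker medians differed by -0.14 and -0.31. Cardiomyocyte markers were present as the tissue label implies, since none of the 18 listed was at 0 over a whole group.

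Rpl3 was higher and Rpl3l lower in the inducible knockout than in its control. Rpl3 measured 184, 162 and 177 CPM in the CTR2 libraries and 564, 595 and 910 CPM in the iCKO libraries. Every iCKO library lay above every control, and replicate 3 was the highest. The group means were 174 ± 11.1 CPM and 690 ± 191 CPM (SD, n = 3), a log2 fold change of 1.98 ± 0.21 (standard error) and a 3.95-fold higher level. Rpl3l measured 268, 309 and 236 CPM in CTR2 and 58.1, 49.2 and 70.0 CPM in iCKO. No iCKO library reached the lowest control, and the means were 271 ± 36.5 and 59.1 ± 10.5 CPM (SD, n = 3). The log2 fold change of Rpl3l was -2.20 ± 0.19 (standard error), a level 0.218 times that of the control. Of the 13548 genes tested in iCKO, groups failed to overlap with iCKO higher for 31.9% and with iCKO lower for 27%, and the choice of these members was made on the same contrast. In bulk tissue fewer cells of a type and less RNA per cell cannot be told apart.

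The same directions with smaller sizes were measured in the constitutive knockout. Rpl3 measured 191, 160 and 257 CPM in CTR1 and 254, 236 and 346 CPM in mCKO. The groups overlapped, since mCKO replicates 1 and 2 lay below CTR1 replicate 3, while each mCKO library exceeded the control of its own number. The means were 203 ± 49.1 and 279 ± 59.0 CPM (SD, n = 3), and the log2 fold change was 0.46 ± 0.23, or 0.47 ± 0.06 with the replicate block (standard errors). Rpl3l measured 311, 320 and 322 CPM in CTR1 and 151, 188 and 221 CPM in mCKO. These groups did not overlap, and mCKO replicate 1 was the lowest. The means were 318 ± 5.94 and 187 ± 34.9 CPM (SD, n = 3), with a log2 fold change of -0.77 ± 0.16, or -0.78 ± 0.09 with the block. Of 13353 genes tested in mCKO, 7.69% had all mCKO libraries higher and 7.3% had all lower.

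**Figure D1:**
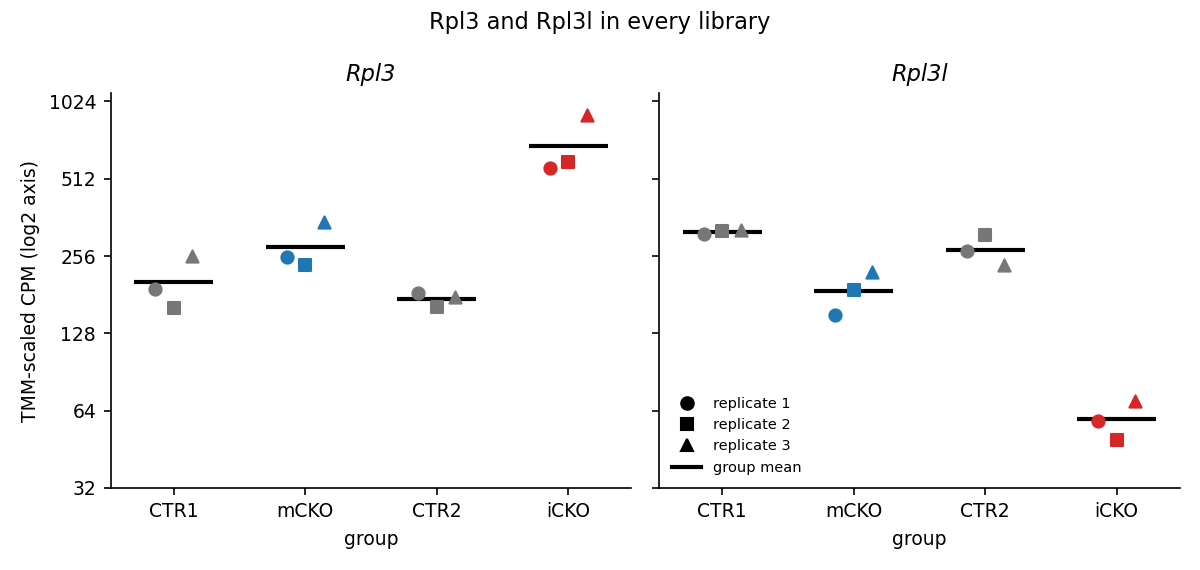
TMM-scaled CPM of Rpl3 (left) and Rpl3l (right) on a log2 axis, with 1 point per library, the symbol giving the replicate number and the bar the group mean. The iCKO libraries reach 910 CPM of Rpl3 and 70.0 CPM of Rpl3l or less, and the mCKO group means lie between those of iCKO and the controls.

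With all 12 libraries on 1 scale, the groups could be put in order, although the tables are separate experiments. Rpl3 was lowest in CTR2 (178 ± 10.3 CPM) and went through CTR1 (203 ± 48.9) and mCKO (277 ± 57.5) to iCKO (686 ± 212; SD, n = 3). The neighbours CTR2 and CTR1, and CTR1 and mCKO, overlapped, whereas mCKO (highest 342 CPM) and iCKO (lowest 545 CPM) did not. Rpl3l was lowest in iCKO, and its means ran from iCKO (58.6 ± 11.9 CPM) through mCKO (186 ± 33.8) and CTR2 (276 ± 37.5) to CTR1 (317 ± 5.45; SD, n = 3). Its CTR2 and CTR1 libraries overlapped, and the other neighbours did not. The mCKO effect minus the iCKO effect was -1.50 ± 0.33 for Rpl3 and 1.46 ± 0.25 for Rpl3l on the log2 scale (standard errors), where over all genes 11% of differences were called higher and 9.88% lower. The 2 models also differ in the Cre transgene and in tamoxifen, and these cannot be told apart from the timing of the deletion.

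The ratio of Rpl3l to Rpl3 separated all knockout libraries from all controls. In counts, the ratio of Rpl3l to Rpl3 was 1.63, 1.997 and 1.26 in CTR1 and 0.596, 0.798 and 0.639 in mCKO. It was 1.46, 1.90 and 1.33 in CTR2 and 0.103, 0.0826 and 0.0769 in iCKO. Rpl3l counts exceeded Rpl3 counts in all 6 control libraries and fell short of them in all 6 knockout libraries, and the control groups overlapped. The log2 ratio differed by -1.25 ± 0.23 in mCKO (standard error, ±0.14 when paired by replicate number), 2.38-fold lower. It differed by -4.15 ± 0.20 in iCKO, 17.8-fold lower. Per kilobase of transcript, Rpl3 made up 39.0% of the sum of both genes in CTR1 and 60.2% in mCKO. The corresponding shares were 39.8% in CTR2 and 92.1% in iCKO. The lowest share in any iCKO library was 90.8%, and the highest in any control library 44.8%.

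**Figure D2:**
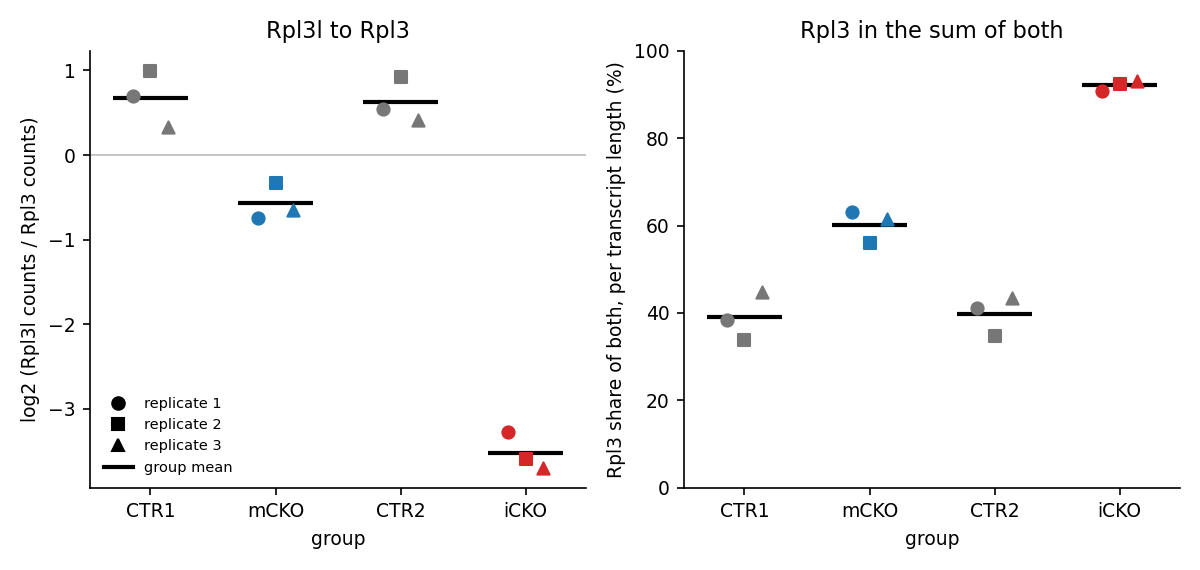
Left, log2 of the count ratio of Rpl3l to Rpl3 per library; right, the share of Rpl3 in the length-scaled sum of both genes (%), with points for libraries, symbols for replicate numbers and bars for group means. All 6 control libraries sit above 0 and all 6 knockout libraries below it in the left panel, and iCKO reaches a mean share of 92.1% in the right panel.

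The sum of both genes differed less between groups than either member did. The log2 change of a sum always lies between those of its parts. Since the members were chosen on their fold changes, which are opposite in sign, the smaller change follows in part from that choice and carries no test. Per kilobase of transcript, Rpl3 plus Rpl3l measured 368, 352 and 424 CPM in CTR1 and 298, 311 and 417 CPM in mCKO. These groups overlapped, with a log2 change of -0.17 ± 0.17. In CTR2 the sum was 331, 345 and 303 CPM per kilobase and in iCKO 460, 476 and 725 CPM per kilobase. The iCKO libraries were all higher, by 0.73 ± 0.22 on the log2 scale, or 0.52 without iCKO replicate 3. The mean log2 level of the 78 other cytosolic ribosomal protein genes differed by 0.76 ± 0.32 in iCKO and 0.05 ± 0.40 in mCKO. Relative to that mean, the sum of the pair in CPM, not scaled by length, differed by -0.04 ± 0.12 in iCKO. The same value was -0.23 ± 0.24 in mCKO, with overlap in each model. Rpl3 alone differed from the mean by 1.19 ± 0.12 in iCKO, without overlap, and by 0.41 ± 0.18 in mCKO, with overlap. Every error here is a standard error over 3 libraries a group.

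Among the ribosomal protein genes, Rpl3 had the highest fold change of 79 in each model. The next was Rps27a in iCKO and Rps12 in mCKO. Rpl3 was second without CTR1 replicate 3 and first in the other settings tried for each model. This place follows from how the members were chosen and carries no test. Of the 78 others, 56 rose in iCKO and 0 fell, with a median log2 fold change of 0.89 against 0.03 over all genes. Over all 13548 genes, 25.2% were called higher and 19.5% lower in iCKO (3420 and 2648 genes). With library sizes in place of TMM factors the all-gene median was 0.21 higher and the split 4592 higher to 1832 lower, and 71 ribosomal protein genes were called. The count of 56 depended on single controls, falling to 18, 22 and 12 without CTR2 replicate 1, 2 or 3. Without iCKO replicate 3 it was again 56, with 1 gene called lower and a median of 0.45.

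The large subunit genes other than Rpl3 were called higher for 36 of 46 and the small subunit genes for 20 of 32 in iCKO. Over all genes 25.2% were called higher and 19.5% lower. The subunit counts are parts of the 56, which fell to 18, 22 and 12 without CTR2 replicate 1, 2 or 3. Rps27a, which encodes a small subunit protein fused to ubiquitin, measured 95.2, 75.0 and 116 CPM in CTR2 and 147, 206 and 510 CPM in iCKO. Its groups did not overlap and its log2 fold change was 1.60 ± 0.43 (adjusted p = 0.016, edgeR quasi-likelihood), but it was not called without CTR2 replicate 1 or 2 (adjusted p = 0.054 to 0.064). Rpl10 and Rpl38, both large subunit proteins, rose by 1.33 ± 0.29 (adjusted p = 0.0063) and 1.31 ± 0.28 (adjusted p = 0.0065). Of 5 tested paralogs of other ribosomal proteins 4 also passed the test. They were Rps27l (1.36 ± 0.31, adjusted p = 0.0075), Rpl36al (1.23 ± 0.28, adjusted p = 0.0085), Rpl7l1 (0.65 ± 0.16, adjusted p = 0.010) and Rpl22l1 (1.18 ± 0.34, adjusted p = 0.021), where the last was not called when any 1 of the 3 controls was left out (adjusted p = 0.053 to 0.073) and Rpl7l1 not without CTR2 replicate 3 (adjusted p = 0.053).

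In mCKO no ribosomal protein gene was called without the block, in a comparison that called 0 of 13353 genes. That fit had 1164 genes at an unadjusted p under 0.05, and DESeq2 called 176 genes higher and 134 lower. With the block 7.32% of genes were called higher and 6.45% lower (978 and 861). Using library sizes with the block, the split was 1581 to 474. Rps12, a small subunit gene, was the 1 ribosomal protein gene called with the block (0.25 ± 0.07, adjusted p = 0.028). It measured 127, 118 and 211 CPM in CTR1 and 142, 138 and 272 CPM in mCKO, with overlap, and the median of the 78 genes was 0.06. Rps27l rose by 0.49 ± 0.07 with the block (adjusted p = 0.0016) and not without it (adjusted p = 0.84).

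**Figure D3:**
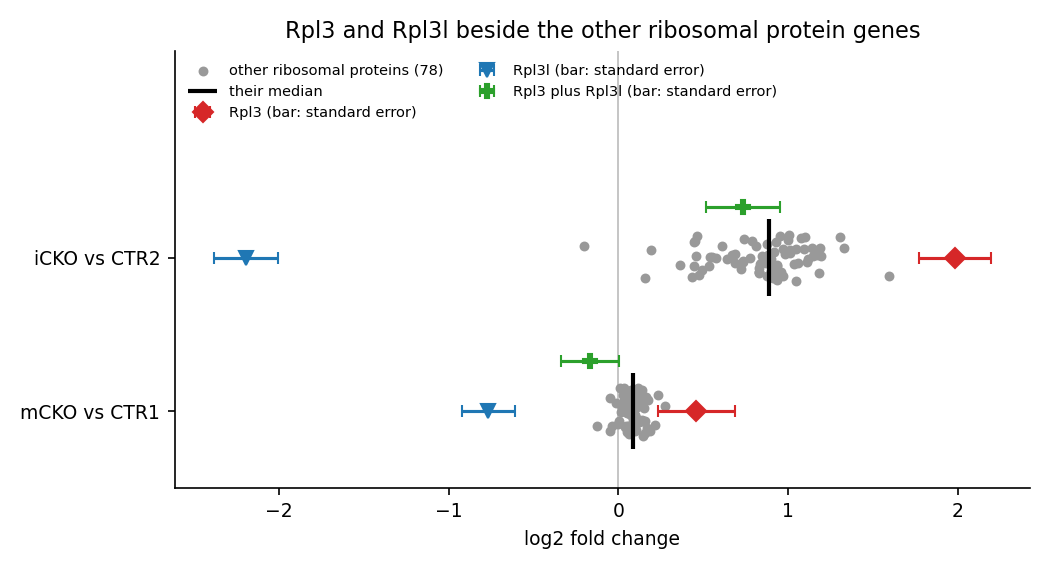
Log2 fold changes of Rpl3 (diamond), Rpl3l (triangle), their length-scaled sum (cross) and the 78 other ribosomal protein genes (grey points, 1 per gene) in each model, with the black line at the median of the 78. Bars are standard errors. Rpl3 lies to the right of all grey points in both models, and the sum lies near the median in iCKO (0.73 against 0.89).

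Genes that act on the Rpl3 protein or on the assembly of the large subunit were examined next. Grwd1, whose product is the chaperone that escorts newly made Rpl3, measured 15.2, 15.2 and 13.2 CPM in CTR2 and 25.9, 26.5 and 30.1 CPM in iCKO. Its groups did not overlap and it rose by 0.92 ± 0.15 (adjusted p = 0.0016, edgeR quasi-likelihood). Mettl18, the methyltransferase that modifies a histidine of Rpl3, measured 3.64, 3.63 and 3.16 CPM in CTR2 and 1.72, 2.33 and 2.68 CPM in iCKO. All its iCKO libraries were lower, but it did not pass the test (-0.63 ± 0.26, adjusted p = 0.075) and was called without iCKO replicate 3 (adjusted p = 0.034). Of the 29 genes listed for chaperoning, modification and large subunit assembly, 25 were higher in iCKO and 0 lower, with a median of 0.72. The count of 25 became 15 without CTR2 replicate 1. Over all genes 25.2% were called higher and 19.5% lower in iCKO, with a median of 0.03. Nifk, Mak16, Ftsj3 and Bop1, all nucleolar assembly factors, rose by 1.31 ± 0.17, 0.96 ± 0.14, 1.03 ± 0.15 and 1.07 ± 0.16 (adjusted p between 6.7e-04 and 0.0010). In mCKO with the block, Nsa2 alone was called of these 29 (0.30 ± 0.06, adjusted p = 0.011). The shares over all genes in that fit were 7.32% higher and 6.45% lower.

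RNA polymerase I makes the precursor of the ribosomal RNA, and of 23 tested genes for it and for nucleolar RNA modification, 14 rose and 1 fell in iCKO. Among the polymerase subunits and factors, Polr1b, Rrn3, Taf1b and Taf1d were called higher. Taf1a was the gene that fell (-1.06 ± 0.16, adjusted p = 0.0010, edgeR quasi-likelihood). Polr1a was lower without overlap (-0.53) and Polr1c, Polr1d and Polr1e higher without overlap, but none of these was called. Ubtf and Taf1c were not called and overlapped. Nop58 and Fbl, whose products act in RNA methylation, rose by 1.57 ± 0.17 (adjusted p = 2.8e-04) and 1.36 ± 0.18 (adjusted p = 6.5e-04). Myc, a transcription factor that drives ribosome synthesis, rose by 2.38 ± 0.34 (adjusted p = 8.8e-04), and the nucleolar helicase gene Ddx21 by 1.03 ± 0.15 (adjusted p = 0.0010). In mCKO the polymerase subunit gene Polr1e was called with the block (0.41 ± 0.08, adjusted p = 0.0065). Of the 9 elongation factor genes, 3 rose and 2 fell in iCKO, beside 25.2% and 19.5% of all genes. Eef1g rose by 1.21 ± 0.20 (adjusted p = 0.0016) and Eif5a2 by 1.08 ± 0.21 (adjusted p = 0.0037). The 2 lower calls were lost with the block, with library sizes alone and without CTR2 replicate 1, 2 or 3 or iCKO replicate 2, and 1 gene was called lower without iCKO replicate 1.

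Other genes that, like Rpl3l, are the muscle or adult member of a pair were compared with their broad or fetal counterparts. The 15 other pairs were chosen with earlier results of these data known, and their counts support no statement beyond the values. In iCKO the muscle or adult gene fell in 15 of 15 pairs, while the broad or fetal gene rose in 7 and fell in 2. Over all genes 25.2% were called higher and 19.5% lower in iCKO. The opposite calls that mirror the directions of Rpl3 and Rpl3l were found for Eef1a1 and Eef1a2, Eno1 and Eno3, Pgam1 and Pgam2, Ckb and Ckm, Slc2a1 and Slc2a4, Tnni1 and Tnni3, and Myh7 and Myh6. In mCKO with the block the muscle or adult gene fell in 8 pairs and the broad or fetal gene rose in 5. There 2 pairs were opposite (Ckb and Ckm, Tnni1 and Tnni3), and without the block there was no call. With the block 7.32% of all genes were called higher and 6.45% lower in mCKO. The log2 ratio of the muscle or adult to the broad or fetal gene was lower in all 15 other pairs in each model. Libraries did not overlap in 15 of them in iCKO and 6 in mCKO. For single genes, groups failed to overlap with the knockout higher for 31.9% and lower for 27% in iCKO. In mCKO these shares were 7.69% and 7.3%. The smallest change of a ratio in mCKO was -0.013 ± 0.20 for Ldhb to Ldha. The ratio of Myh6 to Myh7 moved by -0.16 ± 0.72, and the fitted fold changes gave it the opposite sign. Ldhb was entered as the heart form beside Ldha, the form of skeletal muscle. Rpl3l to Rpl3 had the second largest decrease of the 16 pairs in each model, after Tnni3 to Tnni1, the adult and fetal troponin I genes. The latter moved by -5.33 ± 0.48 in iCKO and -1.82 ± 0.48 in mCKO (standard errors). Tnni1 measured only 0.20, 0.31 and 0.51 CPM in CTR1 and 0.83, 1.71 and 0.71 CPM in mCKO. Its mCKO call and ratio thus rest on low levels, and the ratio also on the pseudocount of 0.1 CPM.

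The pair nearest in function was Eef1a1 and Eef1a2, the broad and muscle or neuronal forms of the elongation factor that delivers aminoacyl-tRNA. Eef1a1 measured 946, 1122 and 982 CPM in CTR2 and 2654, 3091 and 3369 CPM in iCKO. It rose by 1.58 ± 0.16 (adjusted p = 1.9e-04). Eef1a2 measured 1701, 1850 and 1720 CPM in CTR2 and 1349, 1244 and 1286 CPM in iCKO. It fell by 0.44 on the log2 scale (standard error 0.13, adjusted p = 0.026), with the loss of that call already given for the elongation factors. The ratio of Eef1a2 to Eef1a1 thus moved by -2.02 ± 0.13 on the log2 scale, compared with -4.15 ± 0.20 for Rpl3l to Rpl3. In mCKO Eef1a1 rose with the block (0.41 ± 0.06, adjusted p = 0.0021). Without the block its value was 0.38 ± 0.39 (adjusted p = 0.92), and ran from 0.013 without mCKO replicate 3 to 0.84 without CTR1 replicate 3. With the block Eef1a2 gave -0.04 ± 0.06 (adjusted p = 0.73). Ckb and Ckm, the broad and muscle creatine kinases, were called in opposite directions in iCKO, and in mCKO with the block. In the CTR1 libraries Ckb measured 45.2, 48.3 and 70.7 CPM and in mCKO 56.0, 69.1 and 89.8 CPM, with overlap (0.39 ± 0.07 with the block, adjusted p = 0.0044). Ckm measured 3282, 3267 and 3514 CPM in CTR1 and 2652, 2866 and 2996 CPM in mCKO, without overlap (-0.24 ± 0.06 with the block, adjusted p = 0.018). Neither was called without the block (adjusted p = 0.77 and 0.58). Tnni1 measured 0.51, 0.14 and 0.46 CPM in CTR2 and 6.14, 4.83 and 5.59 CPM in iCKO, and its fold rests on low control levels. Myh7 was not called without CTR2 replicate 1 or iCKO replicate 3 (adjusted p = 0.096 to 0.098), and Slc2a1 was not called without CTR2 replicate 3. Cox7a2, a broad gene called lower, was not called with library sizes alone or without CTR2 replicate 1 or iCKO replicate 1 or 2 (adjusted p = 0.051 to 0.083). Eno3 was not called with library sizes alone or without CTR2 replicate 1 or iCKO replicate 2.

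**Figure D4:**
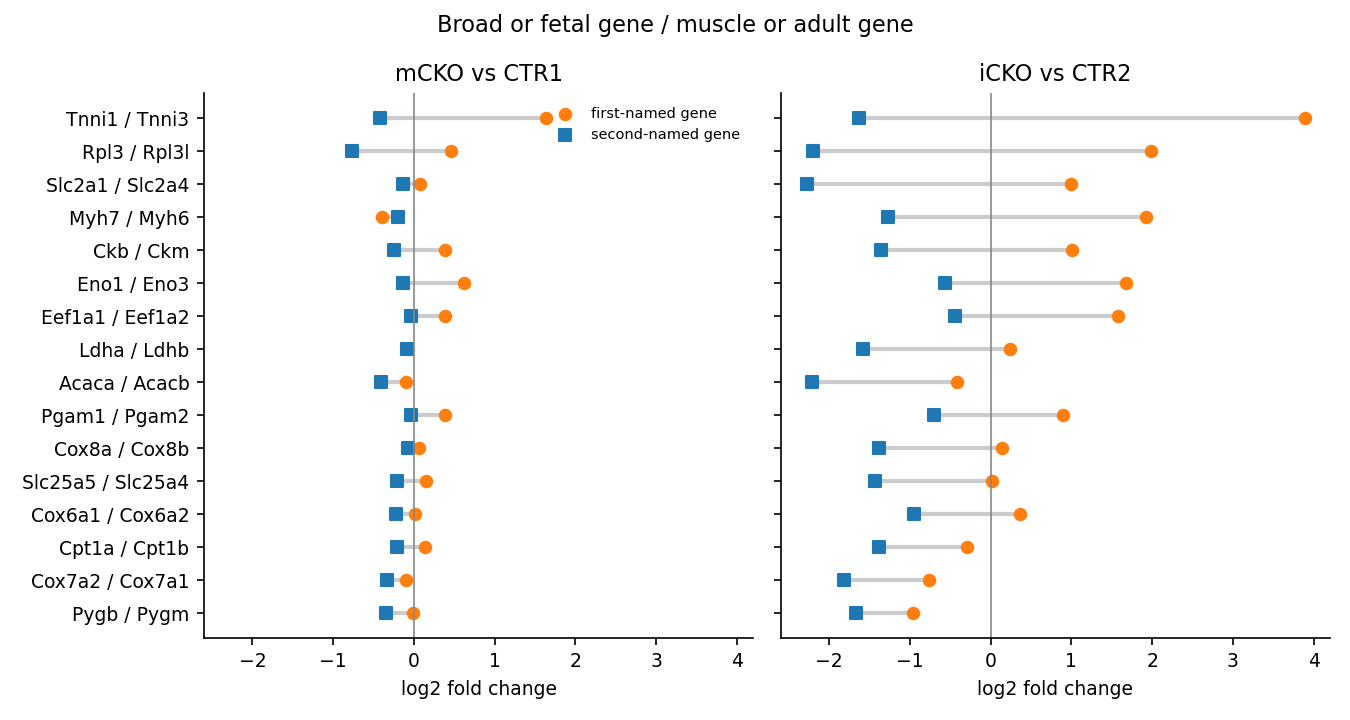
Log2 fold changes of the broad or fetal gene (circle) and the muscle or adult gene (square) in 16 pairs, in mCKO (left) and iCKO (right), ordered by the difference in iCKO. Squares lie to the left of circles in all 16 pairs in iCKO, and Rpl3 and Rpl3l lie far apart, second only to Tnni1 and Tnni3.

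Markers of several cell types also differed between iCKO and CTR2. Summed over 18 cardiomyocyte markers, levels ran from 147900 to 162100 CPM in CTR2 and from 71370 to 85340 CPM in iCKO. Of these 18 markers 14 fell in iCKO and 0 rose, with a median of -1.02. For this and the other marker counts in iCKO, the shares over all genes were 25.2% called higher and 19.5% called lower. Mb, the oxygen-binding protein of muscle, fell by 2.25 on the log2 scale (adjusted p = 7.9e-05), and Pln, a regulator of the calcium pump, by 1.94 (adjusted p = 6.1e-05). Rpl3l was lower by more than the mean of these markers, its log2 level relative to that mean differing by -1.17 ± 0.21 without overlap. All 14 macrophage markers rose, 8 of 13 fibroblast markers rose and 2 fell, 0 of 12 endothelial markers rose and 6 fell. The endothelial count was 2 when any 1 of the 3 controls was left out and 3 without iCKO replicate 1. Of 9 tested skeletal muscle markers 5 rose and 2 fell, the highest being Tnnt3 (5.88 ± 0.29, adjusted p = 2.0e-05). The 2 that fell were Atp2a1 and Ckm, and Ckm is also among the cardiomyocyte markers. Summed macrophage levels ran from 381 to 503 CPM in CTR2 and 1116 to 2144 CPM in iCKO, and fibroblast levels from 2389 to 2909 and 5185 to 7656 CPM. The part of these cells in the levels of Rpl3 and Rpl3l was not tested.

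In mCKO the cardiomyocyte sum ran from 120800 to 160900 CPM in CTR1 and 100200 to 140200 CPM in mCKO, which overlapped. With the block 11 of 18 cardiomyocyte markers fell, 12 of 14 macrophage and 8 of 13 fibroblast markers rose, 1 of 12 endothelial markers rose, and 3 of 8 skeletal muscle markers rose with 1 lower. The lower one was Ckm, which is also among the cardiomyocyte markers. The shares over all genes with the block were 7.32% higher and 6.45% lower. No marker was called without the block. The log2 level of Rpl3l relative to the cardiomyocyte mean differed by -0.54 ± 0.27 in mCKO, with overlap. Summed macrophage markers ran from 564 to 833 CPM in CTR1 and 761 to 1365 CPM in mCKO. The part of these cells was not tested here either.

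**Figure D5:**
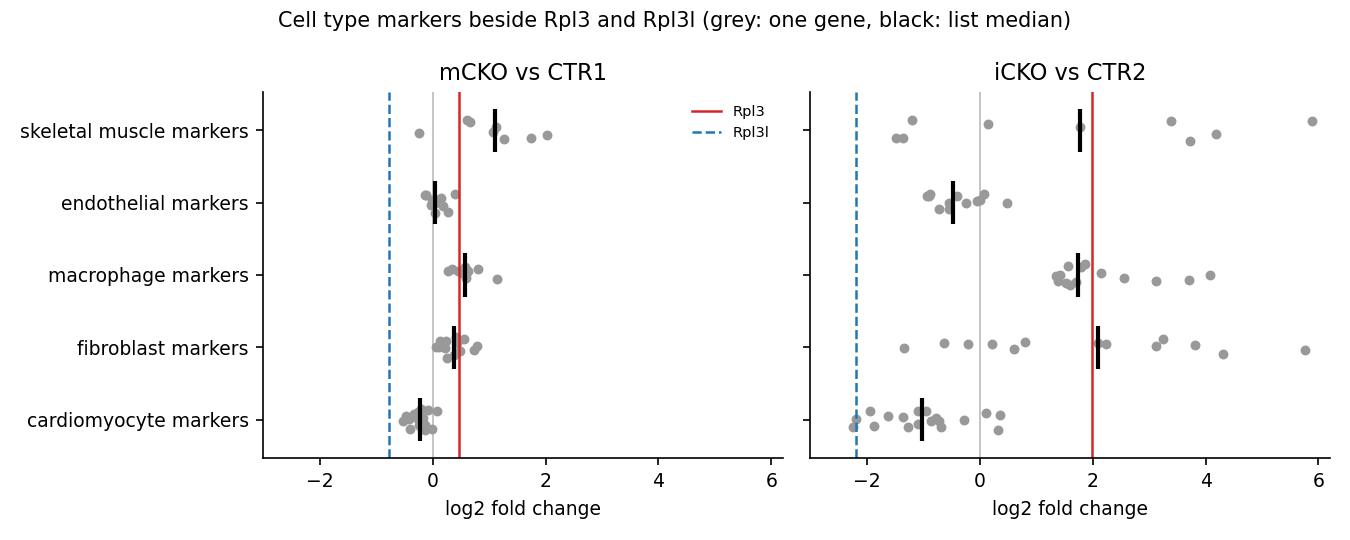
Log2 fold changes of each listed marker gene (grey points) by cell type in mCKO (left) and iCKO (right), with black bars at list medians, the red line at Rpl3 and the dashed blue line at Rpl3l. In iCKO the cardiomyocyte median is -1.02 and Rpl3l lies at -2.20.

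Of 11779 genes in both tables with average log2 CPM of at least 1, the pattern closest to the log2 ratio of Rpl3l to Rpl3 over the 12 libraries was that of Etfdh, which encodes an electron transfer dehydrogenase (Pearson r = 0.99). Mccc2, Pex6, Egln1 and Tmem38a followed. The most inverse was Mybpc2, the fast skeletal myosin-binding protein (r = -0.99), ahead of Pdk3, Maged2, Postn and Ddr1. Closest to Rpl3 alone were Sdcbp (r = 0.99), Rac2, Cdc42, Macir and Tuba1a. Closest to Rpl3l alone were Bphl (r = 0.99), Il15, Pex6 and Slc39a3. These values are descriptions over libraries that fall into 4 groups and share scaling factors, so that r mainly follows the group means. Within the 6 libraries of the mCKO experiment, r with the ratio was 0.89 for Etfdh and -0.90 for Mybpc2.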

How the data were processed

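RNA from the left ventricle was sequenced in 12 libraries. Per the labels' protocols, Trizol served for RNA extraction and a TruSeq Stranded mRNA kit, which keeps polyadenylated RNA, for the libraries. Per the submitters' processing notes, HISAT2, DESeq and GRCm38 were used. Not given in the sources used here are versions, annotation, counter, strand setting and read length. The authors deposited whole-number gene counts in 1 table per experiment, with 17260 genes (mCKO and CTR1) and 17325 genes (iCKO and CTR2). Library totals were 19682268 to 25871882 counts.

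From these counts, edgeR 4.0.16 in R 4.3.3 gave TMM-scaled CPM and quasi-likelihood fits, with genes kept by filterByExpr (minimum count 10, minimum total 15). Two-sided p-values were adjusted by Benjamini-Hochberg over all genes tested and called at 0.05. Each experiment was fitted apart, and the difference between models in 1 fit of 12 libraries. DESeq2 1.42.0 was an alternative. Log2 means over lists used a pseudocount of 0.1 CPM and count ratios used 0.5 counts. Transcripts, lengths and sequences came from GENCODE M21 (GRCm38), the coding sequences being aligned with Biopython 1.88. The fits were tested on simulated data.

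In the mCKO experiment, deviations from the group mean correlated between libraries of the same number (r = 0.464, 0.532 and 0.823), each over the limit of 0.1, so the block stands beside those results. Numbers 1 and 2 correlated as much across numbers (0.529 and 0.553), so only number 3 is set apart by this check. For iCKO and CTR2 they did not. The labels do not say that replicates are separate animals, so that the p-values reflect only how these samples vary, which may be technical. Rpl3, Rpl3l and the lists were chosen with earlier results of these data known. Genes named were Rpl3, Rpl3l, Ddx5, up to 4 called members of each list with the smallest adjusted p (the 2 most abundant if fewer than 2 passed), the pairs, and the 5 genes most like each pattern. Some genes given by this rule are not reported here. Rps27a and, in iCKO, Grwd1, Mettl18, Atp2a1, Taf1a, Taf1b, Taf1c, Taf1d, Polr1a, Polr1b, Polr1c, Polr1d, Polr1e, Rrn3 and Ubtf fall outside the rule. These genes were chosen after their values were seen.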

Additional observations from a re-analysis of the deposited data

Results flagged for a closer look

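The changes of the following genes differed between the models by the test of the difference itself (edgeR quasi-likelihood, Benjamini-Hochberg), given as the mCKO effect minus the iCKO effect on the log2 scale. Over all 13871 genes tested, 11% were higher and 9.88% lower. With library sizes in place of TMM factors the split was 1103 higher and 2145 lower, beside 1521 and 1371.

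Among muscle or adult partners, the difference was 1.25 for Slc25a4 (adjusted p = 9.6e-04), 2.18 for Slc2a4 (2.8e-04), 1.15 for Ckm (0.0012), 1.24 for Tnni3 (0.0039), 1.50 for Cox7a1 (0.039) and 0.69 for Pgam2 (0.025). It was 1.37 for Pygm (6.1e-04), 1.21 for Cpt1b (0.0044), 1.85 for Acacb (0.011) and 1.53 for Ldhb (2.7e-04). Among broad or fetal partners it was -1.02 for Eno1 (0.012), -2.22 for Tnni1 (0.041) and 0.98 for Pygb (0.029). The other broad or fetal partners were not called. Nor were Eef1a2, Cox6a2, Cox8b, Eno3 and Myh6 among the muscle or adult partners.

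Among genes of ribosome synthesis the difference was -0.63 for Rpl7l1 (0.049), -1.18 for Nifk (0.0036), -0.86 for Mak16 (0.0045) and -1.03 for Bop1 (0.0056). It was -0.90 for Grwd1 (0.0099), -1.47 for Nop58 (0.0025), -1.16 for Fbl (0.0037) and -0.85 for Ddx21 (0.0046). Taf1a, which encodes a subunit of an RNA polymerase I selectivity factor, had the opposite sign at 1.21 (0.0030). By this test 15 of the 29 large subunit assembly genes were lower and 0 higher. Of the 23 polymerase I and nucleolar genes 7 were lower and 1 higher. Of the 78 other ribosomal protein genes 0 were called. In 8 or 9 of the alternatives tried, the calls of Cox7a1, Pgam2, Pygb, Tnni1 and Rpl7l1 were lost (adjusted p from 0.051 to 0.12).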

How the results depend on the processing

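Rpl3 stayed higher and Rpl3l lower in both models under every normalization, filter, block and left-out library tried. Leaving out 1 library gave 1.69 to 2.11 for Rpl3 and -2.38 to -2.08 for Rpl3l in iCKO, and 0.27 to 0.67 and -0.91 to -0.64 in mCKO. The log2 ratio ran from -4.28 to -4.00 in iCKO and from -1.42 to -1.09 in mCKO. The difference between models ran from -1.69 to -1.21 for Rpl3 and from 1.31 to 1.63 for Rpl3l. Without both libraries numbered 3, Rpl3 was 1.70 and Rpl3l -2.48 in iCKO, and 1 ribosomal protein gene was called lower; the cause was not tested. The number called higher in iCKO ran from 12 to 64 and lower from 0 to 1 when 1 library was left out.

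With the replicate block, 1 ribosomal protein gene was called higher in mCKO, 6 with the block and library sizes, and 0 without it. In iCKO, where the numbers do not pair the samples, the block gave 51 in place of 56. Over all genes it gave 978 higher and 861 lower in mCKO, in place of 0, and 3055 and 2436 in iCKO. In the difference between models 10 ribosomal protein genes were called lower with the block and 0 without it, with DESeq2 2, with library sizes 3, and 20 without mCKO replicate 3. The log2 change of Eef1a2 in mCKO was 0.0396 with library sizes and ran from -0.17 to 0.10 over left-out libraries, and that of Rps12 ran from -0.12 to 0.59; the cause was not tested. The block with library sizes, and the left-out libraries for relative levels, were chosen after seeing the data. Without both libraries numbered 3, mCKO had 514 genes higher and 526 lower.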
